A study of Mus musculus with 9 samples.

Results

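The genes described here encode the Wnt ligands, their Frizzled receptors and co-receptors, the R-spondins, the secreted inhibitors and the intracellular effectors of Wnt signalling. They were taken by gene symbol alone and made up 51 of the 32285 genes in the count matrices. The 51 members comprised 19 ligands (Wnt), 4 R-spondins (Rspo), 10 Frizzled receptors (Fzd), 4 co-receptors (Lrp5, Lrp6, Ror1 and Ror2), 8 secreted inhibitors (Sfrp and Dkk) and 6 intracellular effectors (Axin1, Axin2, Lef1, Tcf7, Tcf7l1 and Tcf7l2).

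Wnt proteins are secreted, lipid-modified ligands that act over short distances. In the canonical branch a Wnt brings a Frizzled receptor together with Lrp5 or Lrp6, the Axin-based complex that degrades beta-catenin is switched off, and beta-catenin acts with TCF and LEF proteins at target genes. Ligands such as Wnt5a can instead signal through Ror1 and Ror2 without beta-catenin. R-spondins keep Frizzled receptors at the cell surface, Sfrp proteins bind Wnts outside the cell, and several Dkk proteins block Lrp5 and Lrp6. In adipose tissue, canonical Wnt signalling, for example by Wnt10b, is known for holding back the conversion of progenitors into adipocytes.

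Nuclei were isolated from epididymal adipose tissue, a visceral fat depot, of male C57BL/6J mice and profiled by droplet single-nucleus RNA sequencing. Each of 9 diet groups had 1 library of nuclei pooled from 5 mice. The controls C, CC and CCC ate chow up to an age of 18, 26 and 39 weeks, and by the study's methods the chow of C was a low-fat diet and was later replaced by a standard chow in the older controls. H and HH received a high-fat diet (HFD) for 12 and 25 weeks and were killed at 18 and 31 weeks of age. HC and HHC were returned to chow for 8 weeks after HFD periods of the same 2 lengths, and reached 26 and 39 weeks of age. CCH and HCH were given HFD for their last 4 weeks, after 26 weeks on chow or after 12 weeks of HFD and 8 weeks of chow, and were 30 weeks old.

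With 1 library a group there was no spread between replicates and no test. Levels are UMIs (unique molecular identifiers, counting captured RNA molecules) of a gene divided by all UMIs of a class of nuclei in 1 library, times 1000000 (CPM). Intervals are exact 95% intervals, Poisson for levels and conditional for ratios. They say nothing of the variation between nuclei, mice, pools or libraries beyond counting error. A gene was called between 2 libraries when its CPM ratio was at least 2-fold and the interval of the ratio did not hold 1, among genes with at least 20 UMIs in the pair. Where 1 library of the pair had 0 UMIs, the interval alone decided the call. Classes of nuclei were gated on marker genes, none of which is a member: progenitor-gated nuclei had 293 to 741 CPM of Pdgfra, against 5.80 to 22.2 CPM in macrophage-gated nuclei, and endothelial-gated nuclei had 227 to 518 CPM of Cdh5, against 3.21 to 57.3 CPM.

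Libraries held 22599619 to 66615262 UMIs and 4007 to 12535 kept nuclei, and pairs of libraries shared 8 to 55 barcodes, at most 0.493% of the smaller library. Adipocyte RNA found in other gates differed between libraries and classes. Adipoq, an adipocyte gene, reached 65.7% of its adipocyte level in the macrophage-gated nuclei of CC, against 8.18% to 32.8% in the other 8 libraries. In endothelial-gated nuclei Adipoq was 320.4 CPM in CC, 179 in CCC, 150.5 in HC and 164 in HHC, against 313, 201, 167 and 244 CPM in adipocyte-gated nuclei. In HCH it was 214 CPM in endothelial-gated, 358 in adipocyte-gated and 112 in macrophage-gated nuclei, against 90.5, 193 and 43.3 CPM in CCH. The 10 adipocyte markers together had 3021 CPM in endothelial-gated and 2564 in macrophage-gated nuclei of CC, 2103 and 993 in CCC, and 1099 and 506 in HC, so the macrophage level was below the adipocyte RNA of the endothelial gate there. Levels of members in macrophage-gated nuclei are therefore given as a background for free RNA, which leaks from other cells into droplets, and of 98 calls of members described below 54 were kept when this level was subtracted from each library. Macrophages may also hold transcripts of their own, and doublets may remain, so this level need not be free RNA alone. The parts of these were not tested. By the study's methods, ambient RNA was estimated in all samples and none was found to need correction. Where it was above the level of the class in the higher library of a pair, the loss of a call was fixed in advance. Since the adipocyte share was highest in CC, HH is also set beside C, and HC beside CCC. These pairs differ in age, with HH at 31 and C at 18 weeks, and HC at 26 and CCC at 39. Their ratios therefore do not separate age from diet. The labels also name 2 sequencing sets, with C, H, HH, CCH and HCH in S075 and CC, CCC, HC and HHC in S019, so HH and CC differed in set and in age as well as in diet.

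Promoter sequences are shown for 4 members named in the results in progenitors. The ligands Wnt5b and Wnt10b had calls lower, and the receptors Fzd7 and Fzd1 had calls higher on HFD. Those of Fzd7 were lost with the macrophage level subtracted. Each is the 250 bases before a RefSeq transcript start (GRCm38.p6), read 5′ to 3′ on the strand of the gene. Capitals mark a match, on either strand, to the TCF/LEF core CTTTGAT or CTTTGTT. Wnt5b had 3 annotated starts, and the window of the most downstream start (chr6:119449387-119449636, minus strand) held a match, while those of the other two held none. The windows of Wnt10b (chr15:98778151-98778400, minus strand) and Fzd1 (chr5:4758217-4758466, minus strand) held none, and that of Fzd7 (chr1:59481897-59482146, plus strand) held 1.
Wnt5b: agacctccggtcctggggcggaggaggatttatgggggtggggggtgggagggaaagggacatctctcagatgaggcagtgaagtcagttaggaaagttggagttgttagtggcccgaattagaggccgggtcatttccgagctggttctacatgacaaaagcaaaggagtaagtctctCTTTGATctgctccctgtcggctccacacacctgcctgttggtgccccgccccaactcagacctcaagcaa
Wnt10b: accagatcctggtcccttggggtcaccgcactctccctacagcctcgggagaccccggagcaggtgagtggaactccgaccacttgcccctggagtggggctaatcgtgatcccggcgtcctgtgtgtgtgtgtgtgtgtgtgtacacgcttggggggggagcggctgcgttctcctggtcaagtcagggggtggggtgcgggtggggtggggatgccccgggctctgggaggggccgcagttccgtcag
Fzd7: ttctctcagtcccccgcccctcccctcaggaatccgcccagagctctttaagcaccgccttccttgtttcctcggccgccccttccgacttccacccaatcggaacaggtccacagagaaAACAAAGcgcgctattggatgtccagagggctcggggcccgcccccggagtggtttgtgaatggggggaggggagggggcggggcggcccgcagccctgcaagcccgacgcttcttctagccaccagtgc
Fzd1: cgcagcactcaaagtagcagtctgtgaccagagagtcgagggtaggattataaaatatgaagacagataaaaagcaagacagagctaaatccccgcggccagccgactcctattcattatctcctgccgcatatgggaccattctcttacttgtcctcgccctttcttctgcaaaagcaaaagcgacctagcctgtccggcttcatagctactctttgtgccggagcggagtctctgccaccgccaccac
RefSeq windows were found for 34 of the 51 members, 42 windows in all, and 5 of these 42 held a match to either core (Dkk1, Fzd7, Tcf7l2, Wnt11 and Wnt5b). Over all 32851 windows of the same length 8.06% held a match, 3.21% to CTTTGAT and 5.03% to CTTTGTT. A match describes the letters of the window only.

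Of the 51 members, 37 had at least 100 UMIs over all kept nuclei, 12 had fewer and 2 (Dkk1 and Wnt8a) had none. The 37 were 10 ligands, 3 R-spondins, 8 Frizzled receptors, all 4 co-receptors, 6 secreted inhibitors and all 6 effectors. All members together took 423549 UMIs, 0.208% of the UMIs of kept nuclei. The ligands Wnt1, Wnt3, Wnt3a, Wnt7a, Wnt8b, Wnt9b, Wnt10a and Wnt16, the R-spondin Rspo4, the receptors Fzd9 and Fzd10 and the inhibitor Dkk4 were the 12 with fewer.

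Most of the detected members were highest in stromal classes. By the median over the 9 libraries, 11 were highest in mesothelial-gated nuclei, the lining of the depot, 8 in progenitor-gated nuclei, and 3 each in adipocyte-gated, endothelial-gated and smooth muscle or pericyte-gated nuclei. Lymphatic endothelial, T or NK, dendritic and epithelial gates held 2 each, and the macrophage gate 1, Lrp6. Of the epithelial-gated nuclei 50.2%, and of the dendritic-gated nuclei 38.9%, lay near the cut of the gate, against 3.15% of the progenitor-gated nuclei.

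For 6 members the same class was highest in 9 of 9 libraries. These were Fzd1, Rspo1 and Wnt9a in mesothelial-gated nuclei, Lef1 and Tcf7 in T or NK-gated nuclei, and Sfrp1 in progenitor-gated nuclei. Rspo1 had a median of 364 CPM in mesothelial-gated nuclei, against 57.4 CPM in the next class, and Wnt9a 125 CPM against 13.9 CPM. Lef1 and Tcf7, the TCF/LEF factors best known from lymphocytes, had medians of 357 and 144 CPM in T or NK-gated nuclei. The plot of median levels by class shows this division of the members.

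**Figure D1:**
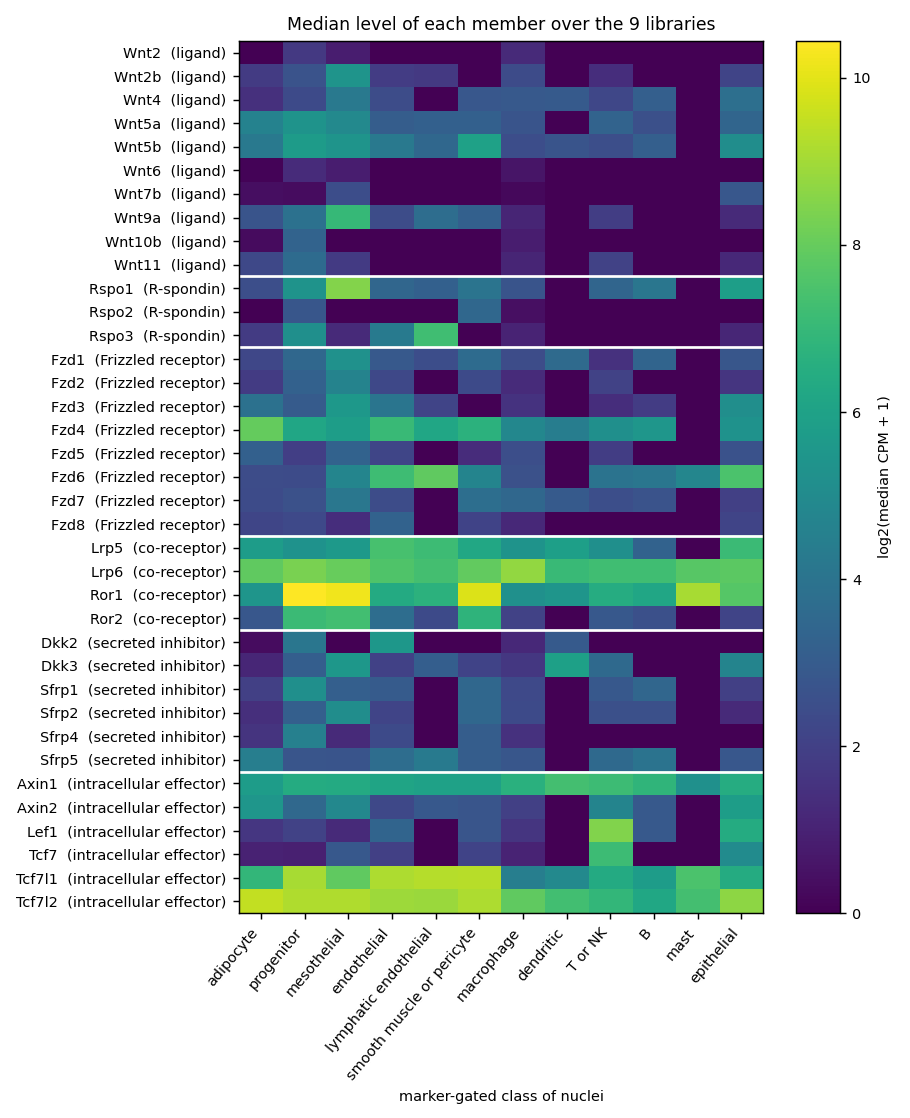
Median level over the 9 libraries, as log2(median CPM + 1), of the 37 members with at least 100 UMIs (rows, grouped by role) in 12 marker-gated classes of nuclei (columns). Colours are to be compared along a row, since levels are not scaled to gene length: Rspo1 and Wnt9a are brightest in the mesothelial column, Lef1 and Tcf7 in the T or NK column, and Tcf7l2 and Lrp6 are present in every column.

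Levels of different genes were compared per kb of annotated gene span, introns included. In progenitor-gated nuclei Fzd4 had the highest median, 8.06 CPM per kb, followed by Ror1 with 3.99, Tcf7l1 with 3.34 and Tcf7l2 with 3.10. Fzd4 led also in adipocyte-gated nuclei, with 28.5 CPM per kb, ahead of Sfrp5 with 4.86 and Tcf7l2 with 3.74, and in endothelial-gated nuclei, with 15.3 ahead of Fzd6 with 4.53. In mesothelial-gated nuclei Rspo1 led with 16.1 CPM per kb, ahead of Fzd1 with 8.93 and Fzd2 with 6.77. Among ligands Wnt5a was highest per kb in progenitor-gated nuclei, with 1.78 CPM per kb, and Wnt9a in mesothelial-gated nuclei, with 4.71. The order depended on the division by span, and UMIs of a 3′ chemistry need not rise in proportion to span. By median CPM in progenitor-gated nuclei, Ror1 with 1394 and Tcf7l2 with 595 were above Fzd4, and Wnt5b was above Wnt5a.

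In progenitors, the receptor Fzd1 was called higher and the R-spondin Rspo2 lower in both obesity comparisons. Rspo2 was about as low in the chow library CCC as in H, and neither of these Rspo2 calls was kept under all alternatives described below. After weight loss the inhibitor Sfrp4 and the ligands Wnt5b and Wnt10b were called lower than in at least 1 control. In progenitor-gated nuclei the comparison of H with C, which addresses obesity, called 8 of 33 tested members higher and 4 lower (27.4% of all 14152 genes tested were called). HH against CC called 5 higher and 5 lower of 33 (30.7% of all genes), and HH against C called 9 higher and 1 lower of 33 (29.3% of all genes). After weight loss, HC against CC called 0 higher and 6 lower of 28 (12.9% of all genes), HC against CCC called 1 higher and 3 lower of 29 (12.5% of all genes), and HHC against CCC called 1 higher and 5 lower of 33 (12.4% of all genes). On renewed HFD, HCH against CCH called 4 higher and 3 lower of 34 (14.2% of all genes). With TMM factors, which shift every log2 ratio of H to C by -0.17 and of HH to CC by -0.23, the split for H against C was 6 higher and 5 lower, with Wnt5b added to the lower members. Over H to C, HH to CC, HC to CC, HHC to CCC and HCH to CCH, the median log2 ratio of the tested members was 0.35, 0.25, 0.10, -0.16 and 0.29 in progenitor-gated nuclei. That of all genes tested was 0.22, 0.31, 0.02, 0.09 and 0.11.

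**Figure D2:**
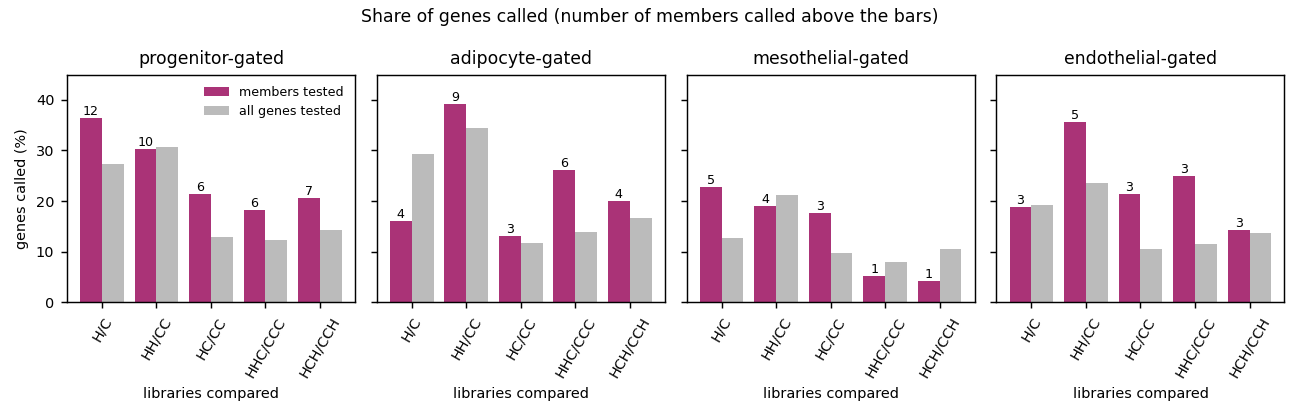
Percent of tested genes that were called (at least 2-fold CPM ratio with a 95% interval that does not hold 1) for the members (purple) and for all genes (grey) in 5 comparisons and 4 gated classes, with the number of members called above each purple bar. The share of members was above that of all genes in some comparisons, such as 12 of 33 members for H against C in progenitor-gated nuclei, and below it in others, such as 4 of 25 for H against C in adipocyte-gated nuclei.

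The ligand Wnt5b, a relative of Wnt5a, was lower in progenitor-gated nuclei in the diet group of all 5 comparisons. Its level was 55.2, 89.4 and 102 CPM in C, CC and CCC, 29.5 and 32.5 in H and HH, 45.5 and 32.2 in HC and HHC, and 77.1 and 52.3 in CCH and HCH. H, HH, HC, HHC and HCH all lay below each of CC and CCC, and below C as well, while CCH was within the range of the controls. The log2 ratio was -0.90 (95% interval -1.20 to -0.61) for H to C, -1.46 (95% interval -1.77 to -1.15) for HH to CC and -1.66 (95% interval -1.96 to -1.36) for HHC to CCC, of which the last 2 were called. It was -0.97 for HC to CC, -1.16 for HC to CCC, which was called, -0.76 for HH to C and -0.56 for HCH to CCH. In macrophage-gated nuclei Wnt5b had 2.49 to 9.61 CPM, below its level in progenitor-gated nuclei of every library. The gene (ENSMUSG00000030170) lies at chr6:119432531-119544347 on the minus strand.

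Progenitor-gated nuclei were also split by marker scores into a Dpp4-type, known as an early interstitial progenitor, and a committed type, with the rest in neither. Dpp4-type nuclei made up 54.0% of the progenitor-gated nuclei of C, 27.2% of CC, 39.5% of CCC, 33.2% of H, 30.5% of HH, 20.2% of HC, 19.5% of HHC, 62.9% of CCH and 30.6% of HCH. The 2 libraries with the highest shares were C and CCH, and those with the lowest were HC and HHC. Within the Dpp4-type, Wnt5b had 55.4, 103 and 92.3 CPM in C, CC and CCC, 39.3 and 43.6 in H and HH, 64.0 and 50.7 in HC and HHC, and 76.3 and 63.2 in CCH and HCH. Within the committed type it had 58.1, 85.4 and 110.2 CPM in C, CC and CCC, 25.1 and 27.1 in H and HH, 39.4 and 26.6 in HC and HHC, and 72.5 and 45 in CCH and HCH. In each type all 5 diet groups were again below their own control. Among committed nuclei the log2 ratio was -1.21 for H to C, -1.65 for HH to CC and -2.05 for HHC to CCC, and among Dpp4-type nuclei it was -0.49, -1.23 and -0.86. The difference between the types was not tested.

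Wnt10b, the ligand best known for restraining adipogenesis, was found nearly only in Dpp4-type nuclei, where its median was 25.2 CPM against 0.918 CPM in committed nuclei. Over all progenitor-gated nuclei it had 16, 8.6 and 9.56 CPM in C, CC and CCC, 4.43 and 9.07 in H and HH, 0 and 1.91 in HC and HHC, and 19.9 and 10.1 in CCH and HCH. Wnt10b was lowest in the weight loss libraries HC and HHC, and it was called lower in H against C, at -1.86 (95% interval -2.59 to -1.17), and in HHC against CCC, at -2.32 (95% interval -3.51 to -1.15). With 0 UMIs in HC and a floor of 3 counts, HC was at least 9.44-fold lower than CC and at least 10.5-fold lower than CCC, pairs with too few UMIs to be called. The share of Dpp4-type nuclei moved with these values, and within that type Wnt10b had 26.5, 25.2 and 19.4 CPM in C, CC and CCC, 11.6 and 27.0 in H and HH, 0 and 7.85 in HC and HHC, and 30.6 and 27.7 in CCH and HCH. HC and HHC were the lowest there as well, H was next, and HH and HCH were slightly above the 3 controls.

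The other ligands had no common direction. Wnt5a had 32.1, 47.0 and 51.6 CPM in C, CC and CCC, 26.9 and 45.7 in H and HH, 39.4 and 40.5 in HC and HHC, and 36.5 and 48.0 in CCH and HCH. Wnt5a was called in no comparison. Wnt9a had 11.8, 12.0 and 15.3 CPM in C, CC and CCC, 13.1 and 14.7 in H and HH, 18.5 and 10.7 in HC and HHC, and 13.9 and 18.1 in CCH and HCH, a narrow range with no call. Wnt4 had 4.07, 2.29 and 3.19 CPM in C, CC and CCC, 11.8 and 9.72 in H and HH, 4.55 and 5.74 in HC and HHC, and 2.31 and 3.57 in CCH and HCH. H and HH were the highest, and Wnt4 was called higher in H against C, at 1.54 (95% interval 0.76 to 2.38), and in HH against CC, at 2.08 (95% interval 0.65 to 4.01). Macrophage-gated nuclei of H and HH held more Wnt4, 15.7 and 17.3 CPM, than the progenitor-gated nuclei of those libraries, so both calls had to be lost with the macrophage level subtracted. Wnt2 had 1.81, 2.29 and 0.637 CPM in C, CC and CCC, 6.64 and 3.89 in H and HH, 1.21 and 0.441 in HC and HHC, and 4.93 and 2.43 in CCH and HCH. Wnt2 was called higher in H against C, at 1.88, and lower in HCH against CCH, at -1.02, while Wnt2b was called higher in H against C only, at 1.06. The Wnt2b call was lost with TMM factors, without the upper gene limit and with the macrophage level subtracted.

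Of the 3 detected R-spondins, which amplify Wnt signals, 2 were called lower in progenitors of H against C, and 1 each in HH against CC and HCH against CCH. Over all genes 750 of 14152, 1041 of 14104 and 240 of 14499 were called lower in these comparisons. Rspo3 had 36.6, 44.7 and 55.5 CPM in C, CC and CCC, 17.7 and 30.0 in H and HH, 50.4 and 33.6 in HC and HHC, and 35.6 and 30.7 in CCH and HCH. H was the lowest library and was called against C, at -1.05 (95% interval -1.43 to -0.67), and HH was next but not called against CC, at -0.58 (95% interval -0.97 to -0.18). The H to C difference was present in Dpp4-type and in committed nuclei, with log2 ratios of -1.27 and -1.16. Rspo2 had 6.56, 9.17 and 0.637 CPM in C, CC and CCC, 0.554 and 1.94 in H and HH, 7.89 and 2.65 in HC and HHC, and 18.7 and 5.86 in CCH and HCH. Rspo2 was called lower in H against C, at -3.57 (95% interval -5.92 to -1.88), in HH against CC, at -2.24 (95% interval -3.45 to -1.07), and in HCH against CCH, at -1.67 (95% interval -2.22 to -1.15), but the chow library CCC, with 1 UMI, was as low as H. Against this low CCC level HC was called higher, at 3.63 (95% interval 1.02 to 8.99). Rspo1 had 36.2, 39.5 and 68.8 CPM in C, CC and CCC, 35.8 and 59.6 in H and HH, 40.4 and 40.2 in HC and HHC, and 35.2 and 41.6 in CCH and HCH. Rspo1 was called in no comparison.

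Frizzled receptors gave 4 calls higher of 8 tested in progenitors of H against C, 3 of 8 in HH against CC and 2 of 8 in HCH against CCH, and 1 call lower in these, Fzd6 in HH against CC. Over all genes 3126 of 14152, 3291 of 14104 and 1817 of 14499 were called higher in these comparisons. Of the 4 in H against C, the calls of Fzd5 and Fzd7 were lost with the macrophage level subtracted. Fzd1 had 7.91, 7.45 and 10.8 CPM in C, CC and CCC, 26.8 and 22.2 in H and HH, 2.12 and 10.2 in HC and HHC, and 7.40 and 24.4 in CCH and HCH. H, HH and HCH, the libraries on HFD at the end other than CCH, were the highest, HC was the lowest and the others lay between. The log2 ratio was 1.76 (95% interval 1.22 to 2.33) for H to C, 1.57 (95% interval 0.75 to 2.52) for HH to CC and 1.72 (95% interval 1.25 to 2.22) for HCH to CCH, all called, and -1.81 (95% interval -3.38 to -0.38) for HC to CC, which was called lower but not with the macrophage level subtracted. In HHC the level was within the range of the controls, and CCH was slightly below it.

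Fzd7 had 4.97, 2.87 and 5.10 CPM in C, CC and CCC, 13.8 and 14.6 in H and HH, 4.25 and 7.65 in HC and HHC, and 4.32 and 12.3 in CCH and HCH, with the same 3 libraries highest. Fzd7 was called higher in H against C, at 1.48 (95% interval 0.78 to 2.23), in HH against CC, at 2.35 (95% interval 1.07 to 4.00), and in HCH against CCH, at 1.51 (95% interval 0.88 to 2.18). Macrophage-gated nuclei held more Fzd7 than progenitor-gated nuclei in 6 of 9 libraries, with 2.85, 4.83 and 3.2 CPM in C, CC and CCC, 39.2 and 31.2 in H and HH, 10.3 and 14.9 in HC and HHC, and 3.92 and 18.3 in CCH and HCH. With the macrophage level of each library subtracted, all 3 Fzd7 calls were lost. This loss was fixed in advance, since that level was above the progenitor level in H, HH and HCH. It cannot tell free RNA from transcripts of the macrophages. Fzd2 had 8.14, 2.87 and 7.65 CPM in C, CC and CCC, 17.2 and 16.5 in H and HH, 4.86 and 8.39 in HC and HHC, and 9.56 and 18.0 in CCH and HCH. Fzd2 was highest in H, HH and HCH and was called in H against C, at 1.08, and in HH against CC, at 2.53. Its H to C call was lost with TMM factors, at 0.91.

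Fzd1, Fzd2 and Fzd7 each have 1 annotated exon, and genes of this kind differed as a group between the same libraries. In progenitor-gated nuclei 40.1% of 344 tested genes with 1 exon were called higher in H against C, with a median log2 ratio of 0.79, against 21.6% and 0.22 for genes with more exons. In HH against CC the medians were 1.19 and 0.29, and in HCH against CCH 0.39 and 0.11. The part of this difference in the Frizzled calls was not tested.

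Fzd4 and Fzd6 were highest in the CC library. Fzd4, a receptor known from blood vessels, had 69.2, 128 and 70.7 CPM in C, CC and CCC, 78.4 and 75.6 in H and HH, 51.0 and 69.8 in HC and HHC, and 56.3 and 73.1 in CCH and HCH in progenitor-gated nuclei. The CC library was the highest, and it was also the highest for Fzd4 in macrophage-gated nuclei, at 104 CPM. HC against CC was called lower, at -1.33 (95% interval -1.62 to -1.03), while HC against CCC was -0.47 and not called, and with the macrophage level subtracted the ratio of HC to CC was 0.01. Fzd6 had 5.20, 14.9 and 7.01 CPM in C, CC and CCC, 4.25 and 2.8 in H and HH, 4.55 and 2.65 in HC and HHC, and 2.78 and 4.29 in CCH and HCH. Fzd6 was highest in CC and was called lower in HH against CC, HC against CC and HHC against CCC, at -2.44, -1.71 and -1.40. In macrophage-gated nuclei Fzd6 had 3.30 to 14.5 CPM, a similar range, and CC was the highest there too. The 3 Fzd6 calls were lost with this level subtracted. Fzd5 was called higher in H against C, at 1.49, from at most 29 UMIs a library. Its levels of 4.43 CPM in H and 1.58 in C were below those in macrophage-gated nuclei, 5.70 and 3.63 CPM, so the call had to be lost with these subtracted.

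No co-receptor was called in progenitors in any comparison. Ror1, a receptor of Wnt5a and per kb the highest co-receptor there, had 947, 1201 and 1477 CPM in C, CC and CCC, 1422 and 1254 in H and HH, 1753 and 1488 in HC and HHC, and 986 and 1394 in CCH and HCH. C and CCH were the lowest 2 libraries and HC the highest. These 2 low libraries held the most Dpp4-type nuclei, and Ror1 was lower in Dpp4-type than in committed nuclei in 9 of 9 libraries, with medians of 933 and 1588 CPM. Ror2 had 125, 137 and 156 CPM in C, CC and CCC, 114 and 99.3 in H and HH, 156 and 139 in HC and HHC, and 146 and 119.7 in CCH and HCH, lowest in HH. Lrp6 had 299, 256 and 254 CPM in C, CC and CCC, 381 and 352 in H and HH, 339 and 333 in HC and HHC, and 300.4 and 326 in CCH and HCH, and H and HH were the highest.

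The inhibitor Sfrp4 was lowest in the weight loss libraries. It had 22.6, 14.9 and 22.3 CPM in C, CC and CCC, 42.5 and 23.3 in H and HH, 3.03 and 6.18 in HC and HHC, and 65.5 and 36.3 in CCH and HCH. HC and HHC were the lowest 2 libraries, below all 3 controls, and CCH was the highest. The log2 ratio was -2.30 (95% interval -3.51 to -1.20) for HC to CC, -2.88 (95% interval -4.06 to -1.83) for HC to CCC and -1.85 (95% interval -2.53 to -1.16) for HHC to CCC, all called. Sfrp4 was higher in Dpp4-type than in committed nuclei in 9 of 9 libraries, and within the Dpp4-type it had 36.0, 32.9 and 38.8 CPM in C, CC and CCC, 91.4 and 46.2 in H and HH, 8.93 and 15.7 in HC and HHC, and 88.3 and 73.8 in CCH and HCH. HC and HHC were the lowest there too, and H and CCH were the highest. HC, HHC, CC and CCC belong to set S019, in which Sfrp4 was lower than in S075 without overlap.

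Sfrp1, the inhibitor that was highest in progenitors in every library, had 21.9, 36.1 and 53.5 CPM in C, CC and CCC, 29.0 and 51.0 in H and HH, 30.0 and 44.1 in HC and HHC, and 17.9 and 39.4 in CCH and HCH. Sfrp1 was called higher in HCH against CCH, at 1.14 (95% interval 0.82 to 1.47), with CCH the lowest library. Dpp4-type nuclei made up 62.9% of the progenitor-gated nuclei of CCH and 30.6% of HCH. Sfrp1 was higher in committed than in Dpp4-type nuclei in 8 libraries and lower in 1, with medians of 34.9 and 25.2 CPM. Dkk3 had 3.84, 5.73 and 7.65 CPM in C, CC and CCC, 13.8 and 16.2 in H and HH, 9.10 and 14.0 in HC and HHC, and 4.16 and 7.57 in CCH and HCH. H, HH and HHC were the highest, and it was called higher in H against C, at 1.85 (95% interval 1.08 to 2.70), and in HH against CC, at 1.5 (95% interval 0.56 to 2.60), with 1.16 to 4.27 CPM in macrophage-gated nuclei. Dkk2 had 11.8, 13.8 and 23.6 CPM in C, CC and CCC, 23.4 and 13.4 in H and HH, 27.0 and 4.41 in HC and HHC, and 16 and 26.1 in CCH and HCH. HHC was the lowest, called against CCC at -2.42 (95% interval -3.16 to -1.68). Sfrp5, an inhibitor of Wnt5a known from adipocytes, had 1.36, 13.2 and 9.56 CPM in C, CC and CCC, 2.40 and 5.83 in H and HH, 0.910 and 12.8 in HC and HHC, and 3.70 and 15.3 in CCH and HCH in progenitor-gated nuclei and 0.778 to 16.9 CPM in macrophage-gated nuclei, with the same libraries high. Its calls were lower in HH against CC, at -1.18, and in HC against CC, at -3.86, and higher in HCH against CCH, at 2.05. Against C, HH was called higher, at 2.10, so the direction for HH depended on the control. Sfrp2 was called lower in HC against CC, at -1.40. The 3 Sfrp5 calls and that of Sfrp2 were lost with the macrophage level subtracted.

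**Figure D3:**
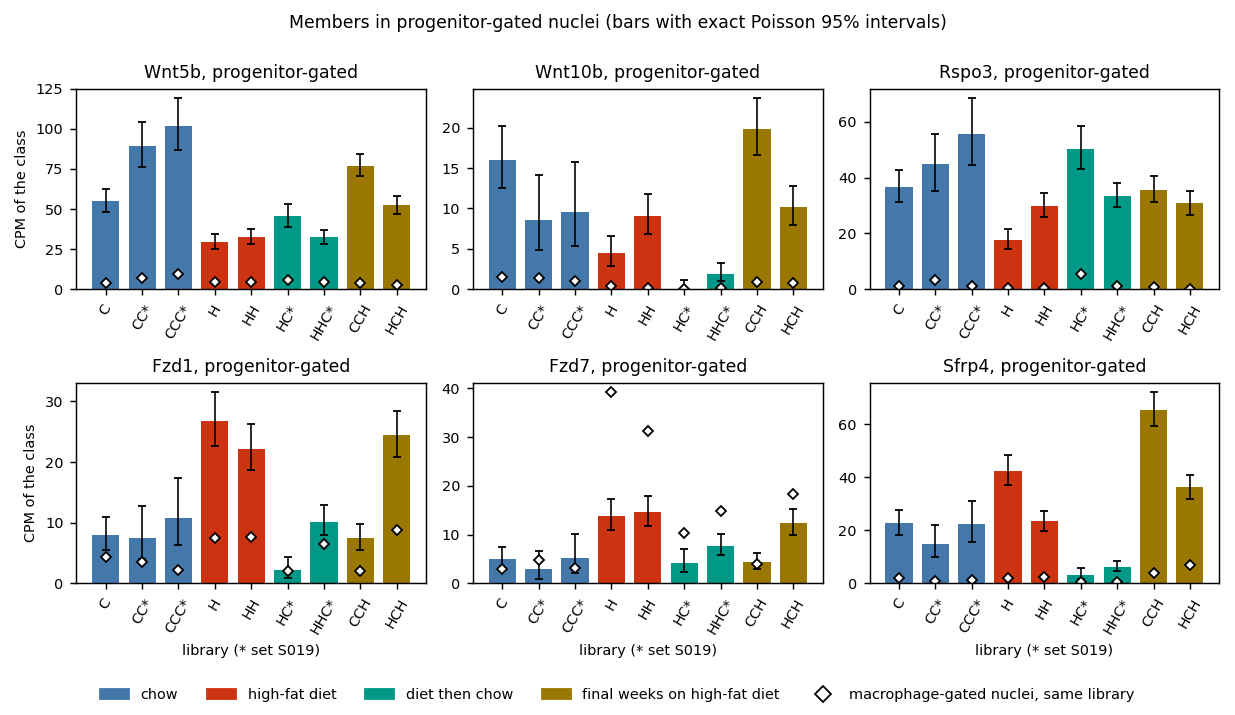
CPM in progenitor-gated nuclei of the 9 libraries for 6 members, with exact Poisson 95% intervals (bars and whiskers) and the level in macrophage-gated nuclei of the same library (diamonds), and asterisks for sequencing set S019. Wnt5b is lowest in H, HH and HHC, Wnt10b and Sfrp4 are lowest in HC and HHC, Rspo3 is lowest in H, and Fzd1 and Fzd7 are highest in H, HH and HCH, where the diamonds of Fzd7 stand above its bars.

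Among the effectors in progenitors, Tcf7l2, a TCF factor of nearly all classes, had 571, 598 and 583 CPM in C, CC and CCC, 800.5 and 713 in H and HH, 774 and 595 in HC and HHC, and 546 and 568 in CCH and HCH. Tcf7l1 had 459, 696 and 795 CPM in C, CC and CCC, 537 and 512 in H and HH, 981 and 709 in HC and HHC, and 544 and 540.1 in CCH and HCH, with HC the highest. Axin1 had 111, 62.5 and 68.8 CPM in C, CC and CCC, 87.9 and 93.4 in H and HH, 70.1 and 84.2 in HC and HHC, and 94.4 and 75.8 in CCH and HCH. None of these 3 was called. Lef1 had 3.84, 6.30 and 3.19 CPM in C, CC and CCC, 0.554 and 0.324 in H and HH, 6.37 and 4.12 in HC and HHC, and 2.47 and 0.714 in CCH and HCH. H, HH and HCH were the lowest, and Lef1 was called lower in H against C, at -2.79 (95% interval -5.21 to -1.01), and in HCH against CCH, at -1.79 (95% interval -3.59 to -0.27), from at most 28 UMIs a library. In macrophage-gated nuclei Lef1 had 3.37, 4.14 and 2.14 CPM in C, CC and CCC, 0.356 and 0.277 in H and HH, 1.43 and 3.97 in HC and HHC, and 2.05 and 1.20 in CCH and HCH, with H, HH and HCH again the lowest, and both calls were lost with this level subtracted. Axin2, a feedback target of beta-catenin, was called lower in HH against CC, at -1.33, but was 0.17 in HH against C. Its level in CC was 26.9 CPM, against 22.8 in macrophage-gated nuclei, and the call was lost with the latter subtracted. Tcf7 had 22 UMIs in HHC and 0 in CCC and was at least 1.69-fold higher, taking 3 counts as the limit for CCC, so that its call does not show a 2-fold difference. Macrophage-gated nuclei had 2.10 CPM of Tcf7 in HHC, against 3.24 in progenitors, and 1.07 in CCC, and with this subtracted the call was lost.

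Of the 41 calls in progenitor-gated nuclei 14 were kept under all 9 alternatives of scaling, filter, fold, gate, gene limit, doublet call and background. Other control libraries and the split by progenitor type were not counted. No filter and the 1.5-fold limit, which are among the 9 in every class, cannot lose a call by their construction. These were Fzd1 and Dkk3 higher in H against C and HH against CC, Fzd1 and Sfrp1 higher and Rspo2 lower in HCH against CCH, and Fzd2 higher and Wnt5b lower in HH against CC. The others were Rspo3 and Wnt10b lower in H against C, and Wnt5b, Sfrp4 and Dkk2 lower in HHC against CCC. Without the upper gene limit the calls of Fzd2 in H against C, Fzd1 in HC against CC and Lef1 and Wnt2 in HCH against CCH were lost. That of Lef1 in H against C was lost with the stricter gate and in clusters, and that of Fzd6 in HHC against CCC in clusters.

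In adipocytes, the Wnt inhibitor Sfrp5 was high in H, HHC and HCH and low in C and HC. The receptor Fzd1 and the ligand Wnt4 were called higher in H against C and in HH against CC, from few UMIs, and these calls were lost with the macrophage level subtracted. H against C called 4 higher and 0 lower of 25 (29.3% of all genes), HH against CC called 5 higher and 4 lower of 23 (34.5% of all genes), and HH against C called 15 higher and 1 lower of 30 (34.0% of all genes). HC against CC called 1 higher and 2 lower of 23 (11.7% of all genes), HC against CCC called 0 higher and 6 lower of 24 (20.8% of all genes), HHC against CCC called 0 higher and 6 lower of 23 (13.9% of all genes), and HCH against CCH called 3 higher and 1 lower of 20 (16.6% of all genes). TMM factors shifted the log2 ratios of H to C by -0.47, of HH to CC by -0.30, of HCH to CCH by -0.22 and of HC to CC by 0.12, and gave 2 higher and 3 lower for H against C and 2 higher and 5 lower for HH against CC. The class held 182 nuclei in H and 2439 in C. The upper limit of 3000 genes a nucleus changed the counts most in this class, and without it 19 members were called in H against C and 15 in HH against CC. The share of all genes called without the limit was not computed, so these 2 counts have no background beside them. Over H to C, HH to CC, HC to CC, HHC to CCC and HCH to CCH, the median log2 ratio of the tested members was 0.02, 0.59, 0.00, -0.50 and 0.26 in adipocyte-gated nuclei. That of all genes tested was 0.27, 0.20, -0.09, -0.05 and 0.14.

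Sfrp5, which binds Wnt5a, had 2.11, 12.9 and 21.6 CPM in C, CC and CCC, 43.0 and 20.8 in H and HH, 3.57 and 34.9 in HC and HHC, and 12.6 and 56.5 in CCH and HCH. C and HC were the lowest, and HCH, H and HHC the highest. It was called higher in H against C, at 4.35 (95% interval 3.56 to 5.16), and in HCH against CCH, at 2.16 (95% interval 1.62 to 2.72), and lower in HC against CC, at -1.86 (95% interval -2.90 to -0.93), a call lost with the macrophage level subtracted, and against CCC, at -2.60. HHC against CCC was 0.69 and HH against CC was 0.69, neither called. CC and CCC had more Sfrp5 than C, and H was above all 3 controls. In macrophage-gated nuclei Sfrp5 was 0.778 CPM in C, 2.58 in H, 13.1 in CC and 16.9 in HCH.

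Among ligands in adipocyte-gated nuclei, Wnt5a had 15.1, 23.6 and 23.3 CPM in C, CC and CCC, 34.2 and 28.5 in H and HH, 23.2 and 26.8 in HC and HHC, and 17.3 and 25.4 in CCH and HCH, and H and HH were the highest. H against C was called, at 1.18 (95% interval 0.54 to 1.77), and this call was lost with TMM factors, at 0.70. Wnt5b had 6.24, 14.7 and 43.2 CPM in C, CC and CCC, 12.6 and 23.6 in H and HH, 25.6 and 14.3 in HC and HHC, and 17.9 and 22.3 in CCH and HCH, lowest in C and highest in CCC. HHC was called lower than CCC, at -1.59 (95% interval -2.29 to -0.95), and no other of the 5 comparisons was called, with H to C at 1.02 (95% interval -0.10 to 1.98). Wnt9a had 2.61, 4.23 and 10.2 CPM in C, CC and CCC, 7.59 and 8.77 in H and HH, 9.52 and 3.74 in HC and HHC, and 5.57 and 5.58 in CCH and HCH. Wnt9a was called higher in HC against CC, at 1.17 (95% interval 0.28 to 2.11), and lower in HHC against CCC, at -1.45 (95% interval -2.99 to -0.19). Against CCC, HC turned to -0.10 and was not called. Wnt4 was called higher in H against C, at 2.68, and in HH against CC, at 2.88, from at most 20 UMIs a library and beside higher macrophage levels in the same libraries, and both calls were lost with that level subtracted. Rspo1 had 3.37, 4.72 and 15.3 CPM in C, CC and CCC, 2.53 and 7.13 in H and HH, 3.27 and 5.61 in HC and HHC, and 3.52 and 4.96 in CCH and HCH. These values were near its macrophage level of 3.07 to 15.0 CPM, and Rspo1 was called lower in HHC against CCC, at -1.45. Subtraction of that level left no call, nor was it kept without the upper gene limit.

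Fzd4, the leading Frizzled gene of adipocytes, had 244, 214 and 239 CPM in C, CC and CCC, 333 and 335 in H and HH, 158 and 249.8 in HC and HHC, and 269.7 and 316 in CCH and HCH. H, HH and HCH were the highest and HC was the lowest, but no ratio reached 2-fold, with 0.45 (95% interval 0.26 to 0.63) for H to C and -0.44 (95% interval -0.60 to -0.28) for HC to CC. Fzd3 had 10.3, 13.9 and 17.0 CPM in C, CC and CCC, 19 and 28.5 in H and HH, 11.0 and 9.97 in HC and HHC, and 17.6 and 8.69 in CCH and HCH. Fzd3 was highest in HH and was called higher in HH against CC, at 1.03, and lower in HCH against CCH, at -1.02. The first call was lost with TMM factors, and neither was kept in clusters or with doublet calls ignored. Fzd1 had 2.61, 3.73 and 3.13 CPM in C, CC and CCC, 8.85 and 9.32 in H and HH, 1.49 and 3.74 in HC and HHC, and 2.35 and 6.20 in CCH and HCH. H, HH and HCH were again the highest, and Fzd1 was called in H against C, at 1.76 (95% interval 0.33 to 2.97), and in HH against CC, at 1.32 (95% interval 0.23 to 2.43), from 7 UMIs in H and 17 in HH, and with TMM factors both calls were lost, at 1.29 and 1.02 with intervals that held 0. Fzd8 and the ligand Wnt2b were also called higher in HH against CC, at 1.33 and 2.80. With the macrophage level subtracted, each of these calls of Fzd1, Fzd8 and Wnt2b was lost. Genes with 1 exon had a median log2 ratio of 1.09 in H against C and 1.99 in HH against CC in this class, against 0.26 and 0.18 for genes with more exons. Fzd5 had 9.86, 6.96 and 7.39 CPM in C, CC and CCC, 15.2 and 8.22 in H and HH, 3.87 and 12.5 in HC and HHC, and 7.62 and 13.6 in CCH and HCH and no call. Fzd6 had 3.54, 8.20 and 17.3 CPM in C, CC and CCC, 1.26 and 1.64 in H and HH, 2.97 and 7.48 in HC and HHC, and 4.98 and 4.34 in CCH and HCH. Fzd6 was highest in CCC and was called lower in HH against CC, at -2.32, in HC against CC, at -1.46, and in HHC against CCC, at -1.21. In CC, HH and HC the macrophage-gated nuclei held more Fzd6, 14.5, 3.60 and 3.99 CPM, and all 3 calls were lost with the macrophage level subtracted.

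Of the co-receptors in adipocyte-gated nuclei, Lrp5 had 52.9, 127 and 106 CPM in C, CC and CCC, 48.1 and 32.3 in H and HH, 142 and 75.4 in HC and HHC, and 53.1 and 50.3 in CCH and HCH. All 4 libraries of set S019 were above all 5 of S075, and HH against CC was called, at -1.97 (95% interval -2.38 to -1.58), while HH against C in the same set was -0.71. Ror1 had 26.9, 71.1 and 131 CPM in C, CC and CCC, 15.2 and 23.6 in H and HH, 80.9 and 61.1 in HC and HHC, and 15.5 and 42.8 in CCH and HCH. The sets were also apart in Ror1, which was called lower in HH against CC, at -1.59 (95% interval -2.09 to -1.13), and in HHC against CCC, at -1.10 (95% interval -1.43 to -0.78), and higher in HCH against CCH, at 1.46 (95% interval 0.92 to 2.01). HH against C, within a set, was -0.19 and not called. The macrophage level of Ror1 ranged from 7.30 to 91.2 CPM and in CC was above the adipocyte level, and with it subtracted the call of HH against CC was lost. Without the upper gene limit HHC against CCC turned to 0.42, and HCH against CCH was 0.50 and not called. Pdgfra, a progenitor marker, had 5.73, 18.4 and 25.6 CPM in C, CC and CCC, 6.32 and 9.87 in H and HH, 12.5 and 27.4 in HC and HHC, and 5.86 and 14.9 in CCH and HCH in adipocyte-gated nuclei. It was higher in HCH than in CCH, as Ror1 was, while HHC was not below CCC. All 10 progenitor markers were detected in this gate in every library, and together they had 885, 989 and 908 CPM in C, CC and CCC, 860.2 and 956 in H and HH, 808 and 839.8 in HC and HHC, and 937 and 1650 in CCH and HCH, highest in HCH. Their part in the Ror1 calls was not tested. Lrp6 had 264, 209.8 and 227 CPM in C, CC and CCC, 257 and 237 in H and HH, 212 and 223 in HC and HHC, and 307 and 303 in CCH and HCH, with no call and with higher levels in macrophages. Ror2 was called lower in HHC against CCC, at -1.45, and Sfrp2 higher in HCH against CCH, at 1.5. The Ror2 call was lost without the upper gene limit and that of Sfrp2 with the macrophage level subtracted.

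Tcf7l2 had the most UMIs of any member and was highest in adipocytes of C. It had 1291, 684 and 515 CPM in C, CC and CCC, 764 and 717 in H and HH, 974 and 786 in HC and HHC, and 675 and 596 in CCH and HCH in adipocyte-gated nuclei. C stood above all other libraries, and HC was next, but no comparison of the 5 was called, with -0.76 (95% interval -0.88 to -0.64) for H to C and 0.61 (95% interval 0.50 to 0.71) for HHC to CCC. Tcf7l1 had 79.6, 241 and 222 CPM in C, CC and CCC, 55.7 and 60.8 in H and HH, 342 and 251 in HC and HHC, and 110.2 and 118 in CCH and HCH. All S019 libraries were above all S075 libraries, HH against CC was called at -1.99 (95% interval -2.28 to -1.70), and HH against C was -0.39. Axin1 had 59.9, 44.8 and 47.7 CPM in C, CC and CCC, 60.7 and 42.8 in H and HH, 53.5 and 53.6 in HC and HHC, and 64.8 and 44.7 in CCH and HCH, with no call, and less than in macrophage-gated nuclei.

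**Figure D4:**
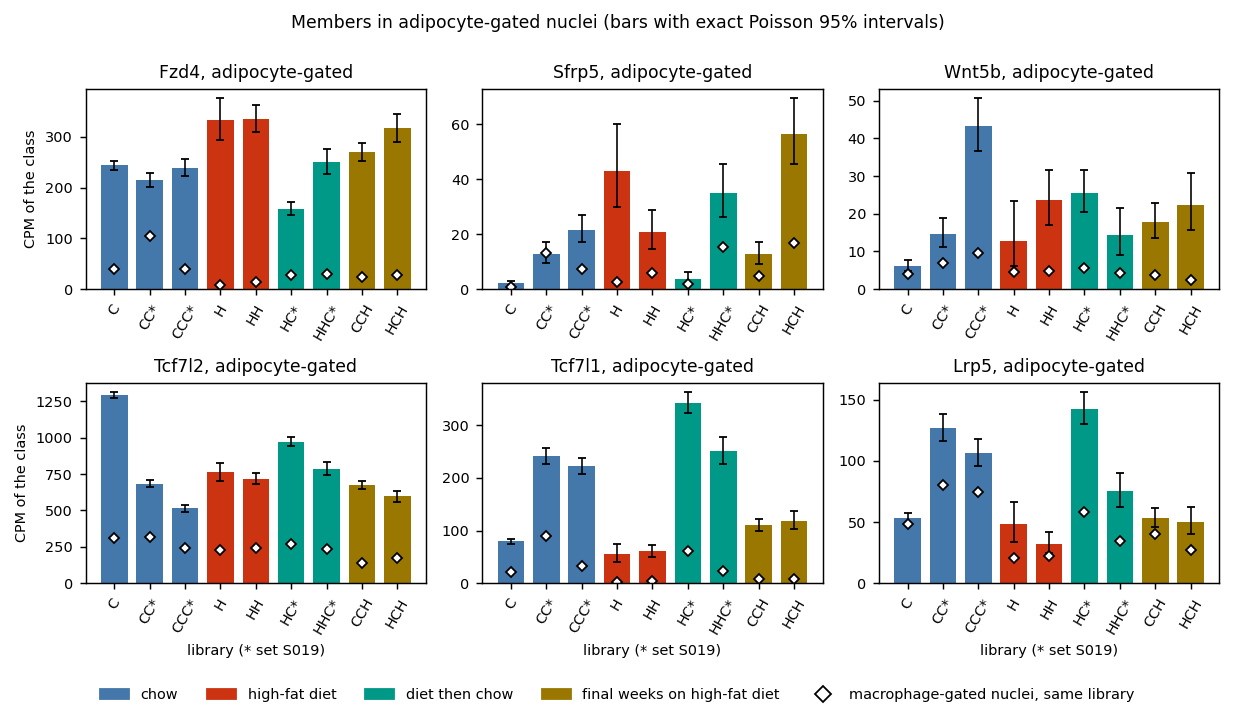
CPM in adipocyte-gated nuclei of the 9 libraries for 6 members, with exact Poisson 95% intervals and the macrophage level of the same library as diamonds (asterisks, sequencing set S019). Sfrp5 is lowest in C and HC and highest in HCH, Tcf7l2 is highest in C, and Tcf7l1 and Lrp5 are higher in the 4 S019 libraries than in the 5 S075 libraries.

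In adipocyte-gated nuclei 5 of 26 calls were kept under all 9 alternatives, Sfrp5 higher in H against C and HCH against CCH, Lrp5 and Tcf7l1 lower in HH against CC, and Wnt5b lower in HHC against CCC. TMM factors ended the call of Fzd8 in HH against CC. Without the upper gene limit the calls of Fzd1 and Fzd8 in HH against CC, of Wnt9a in HC against CC and HHC against CCC and of Fzd3 in HCH against CCH were lost.

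Mesothelial-gated nuclei, the class with the most Rspo1 and Wnt9a, had more of both in H than in C. H against C called 4 higher and 1 lower of 22 (12.8% of all genes), HH against CC called 2 higher and 2 lower of 21 (21.3% of all genes) and HH against C called 2 higher and 0 lower of 22 (15.6% of all genes). HC against CC called 1 higher and 2 lower of 17 (9.78% of all genes), HC against CCC called 0 of 14 (8.64% of all genes), HHC against CCC called 0 higher and 1 lower of 19 (7.99% of all genes) and HCH against CCH called 1 higher and 0 lower of 24 (10.5% of all genes). With TMM factors, which shifted the ratios of H to C by -0.20 and of HH to CC by -0.12, H against C gave 2 higher and 1 lower and HH against CC 1 higher and 4 lower. The class held 77 to 497 nuclei a library, and its marker Msln had 41.4 CPM in HC and 84.0 to 383 CPM in the other 8 libraries. The 10 progenitor markers together had 2832, 2935 and 4010 CPM in C, CC and CCC and 5054 and 5372 in H and HH. They had 2666 and 3641 CPM in HC and HHC, and 3730 and 6077 in CCH and HCH. These sums were above those of the adipocyte and endothelial gates in every library. The part of progenitor RNA in the mesothelial calls was not tested. Over H to C, HH to CC, HC to CC, HHC to CCC and HCH to CCH, the median log2 ratio of the tested members was 0.00, 0.05, -0.12, -0.26 and -0.05 in mesothelial-gated nuclei. That of all genes tested was -0.05, 0.17, -0.05, 0.04 and -0.02.

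Rspo1 had 234, 281 and 424 CPM in C, CC and CCC, 536 and 446 in H and HH, 289.7 and 312 in HC and HHC, and 364 and 365 in CCH and HCH. H was the highest and C the lowest, and H against C was called, at 1.20 (95% interval 0.89 to 1.5), while HH against CC was 0.66 (95% interval 0.37 to 0.96). Wnt9a, a canonical ligand, had 68.6, 93.0 and 127 CPM in C, CC and CCC, 138 and 149 in H and HH, 93.1 and 93.6 in HC and HHC, and 131 and 125 in CCH and HCH. C was the lowest, HH the highest, and H against C was called, at 1.01 (95% interval 0.40 to 1.59), as was HH against C, at 1.12. The older controls CC and CCC were above C for both genes. With TMM factors the H to C ratios were 1.00 for Rspo1 and 0.81 for Wnt9a, and neither was called. Sfrp2, a secreted inhibitor of the stroma, had 32.9, 59.9 and 29.3 CPM in C, CC and CCC, 145 and 51.9 in H and HH, 10.3 and 33.6 in HC and HHC, and 33.3 and 115 in CCH and HCH. H and HCH stood above all other libraries and HC was the lowest, and Sfrp2 was called higher in H against C, at 2.14 (95% interval 1.45 to 2.84), and in HCH against CCH, at 1.79 (95% interval 1.26 to 2.35), and lower in HC against CC, at -2.53 (95% interval -4.89 to -0.84), from 3 UMIs in HC.

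The remaining mesothelial ligands and receptors gave fewer calls. Wnt2b had 41.1, 88.9 and 48.8 CPM in C, CC and CCC, 26.1 and 24.6 in H and HH, 75.9 and 64.8 in HC and HHC, and 32.5 and 31.6 in CCH and HCH, higher in every S019 library than in every S075 library, and was called lower in HH against CC, at -1.85. It was not called in HH against C. Wnt5b had 31.1, 39.3 and 58.5 CPM in C, CC and CCC, 40.9 and 47.8 in H and HH, 89.7 and 33.6 in HC and HHC, and 45.9 and 33.9 in CCH and HCH. Wnt5b was highest in HC and was called higher in HC against CC, at 1.19. Wnt5a was called higher in H against C, at 1.29, and Wnt4 lower in HHC against CCC, at -1.72. The Wnt5a call was lost without the upper gene limit, and that of Wnt4 with the stricter gate, in clusters and with the macrophage level subtracted.

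Fzd1 had 37.5, 24.8 and 48.8 CPM in C, CC and CCC, 48.4 and 68.3 in H and HH, 13.8 and 24.0 in HC and HHC, and 30.1 and 49.7 in CCH and HCH in mesothelial-gated nuclei. Fzd1 was lowest in HC and highest in HH and was called higher in HH against CC, at 1.46 (95% interval 0.53 to 2.51), as was Fzd2, at 1.03. Neither was called in HH against C. The Fzd2 call was lost with TMM factors, with the stricter gate and without the upper gene limit. Of 63 tested genes with 1 exon, 28.6% were called higher in HH against CC in this class, with a median log2 ratio of 0.51. For genes with more exons these were 14.1% and 0.17. Fzd3 had 55.8, 28.9 and 24.4 CPM in C, CC and CCC, 33.5 and 46.5 in H and HH, 20.7 and 48.0 in HC and HHC, and 49.1 and 47.4 in CCH and HCH and no call. Fzd4 had 55.8, 134 and 73.2 CPM in C, CC and CCC, 55.8 and 57.4 in H and HH, 34.5 and 43.2 in HC and HHC, and 42.0 and 39.5 in CCH and HCH. Fzd4 was highest in CC and was called lower in HH against CC, at -1.23, and in HC against CC, at -1.96. With the macrophage level subtracted, HH against CC for Fzd4 was 0.50 and HC against CC lost its call, and against C, HH was 0.04. HC against CCC was -1.09 for Fzd4 and not called.

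Ror1 had 1165, 1176 and 2069 CPM in C, CC and CCC, 1165 and 1218 in H and HH, 1452 and 1274 in HC and HHC, and 1185 and 1066 in CCH and HCH, highest in CCC, with no call. Ror2 had 153, 231 and 176 CPM in C, CC and CCC, 67.0 and 135 in H and HH, 121 and 154 in HC and HHC, and 154 and 107 in CCH and HCH. H was the lowest, and H against C was called, at -1.19 (95% interval -1.98 to -0.48). Lrp6 had 261, 215 and 254 CPM in C, CC and CCC, 268 and 235 in H and HH, 221 and 269 in HC and HHC, and 287 and 278 in CCH and HCH, a narrow range. The inhibitor Dkk3 had 52.1, 68.2 and 63.4 CPM in C, CC and CCC, 29.8 and 36.9 in H and HH, 44.8 and 55.2 in HC and HHC, and 36.4 and 33.9 in CCH and HCH and no call. Among effectors Tcf7l2 had 588, 585 and 644 CPM in C, CC and CCC, 677 and 544 in H and HH, 604 and 475 in HC and HHC, and 529 and 463 in CCH and HCH. Tcf7l1 had 230.3, 384 and 293 CPM in C, CC and CCC, 153 and 223 in H and HH, 355 and 338 in HC and HHC, and 225 and 238 in CCH and HCH. Axin1 had 91.4, 64.1 and 53.7 CPM in C, CC and CCC, 81.9 and 73.8 in H and HH, 93.1 and 79.2 in HC and HHC, and 124 and 83.5 in CCH and HCH. None of the 3 was called, and Tcf7l1 was higher in S019 than in S075.

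In mesothelial-gated nuclei 4 of 14 calls were kept under all 9 alternatives, Sfrp2 higher in H against C and HCH against CCH, and Fzd1 higher and Wnt2b lower in HH against CC. With control C, which is not among the 9, neither of these calls of HH was kept. In clusters the calls of Rspo1 and Ror2 in H against C and of Wnt5b in HC against CC were lost, and that of Ror2 also without the upper gene limit. The Wnt9a call in H against C was lost with the stricter gate and with doublet calls ignored.

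In endothelial-gated nuclei, where Fzd4, Fzd6 and Tcf7l1 led per kb, Ror1 was called lower in H against C and in HH against CC, but not in HH against C, and neither call was kept with the macrophage level subtracted. H against C called 0 higher and 3 lower of 16 (19.2% of all genes), HH against CC called 3 higher and 2 lower of 14 (23.6% of all genes) and HH against C called 0 higher and 1 lower of 16 (21.7% of all genes). HC against CC called 0 higher and 3 lower of 14 (10.6% of all genes), HC against CCC called 0 higher and 3 lower of 11 (12.1% of all genes), HHC against CCC called 0 higher and 3 lower of 12 (11.6% of all genes) and HCH against CCH called 1 higher and 2 lower of 21 (13.7% of all genes). TMM factors shifted the ratios of H to C by -0.19 and of HH to CC by -0.18. In CCC only 37.1% of the endothelial-gated nuclei fell in an endothelial cluster, against 78.6% to 98.9% in the other 8 libraries. Over H to C, HH to CC, HC to CC, HHC to CCC and HCH to CCH, the median log2 ratio of the tested members was -0.18, -0.26, -0.13, -0.26 and -0.04 in endothelial-gated nuclei. That of all genes tested was 0.04, 0.16, 0.01, 0.02 and 0.06.

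Ror1 had 83.4, 143 and 189.6 CPM in C, CC and CCC, 33.2 and 43.1 in H and HH, 233 and 94 in HC and HHC, and 49.8 and 52.7 in CCH and HCH in endothelial-gated nuclei. HH and H were the lowest, HC and CCC the highest, and the S019 libraries were above the S075 libraries. It was called lower in H against C, at -1.33 (95% interval -2.10 to -0.64), in HH against CC, at -1.73 (95% interval -2.36 to -1.14), and in HHC against CCC, at -1.01 (95% interval -1.49 to -0.53). The level in macrophage-gated nuclei moved the same way, with 7.30 CPM in H and 36.8 in C, and 89.5 in HC, and with it subtracted the calls in H against C and HH against CC were lost. HH against C was -0.95 and not called. Pdgfra had 15.8, 20.5 and 53.9 CPM in C, CC and CCC, 8.74 and 24.3 in H and HH, 49.0 and 42.7 in HC and HHC, and 15.7 and 36.1 in CCH and HCH in endothelial-gated nuclei, highest in CCC, HC and HHC and lowest in H. The 10 progenitor markers together had 772, 1093 and 1316 CPM in C, CC and CCC, 1451 and 1996 in H and HH, 1018 and 1108 in HC and HHC, and 834 and 2342 in CCH and HCH there, in another order, with HH and HCH the highest. The part of progenitor RNA in the Ror1 calls was not tested. Lrp5 had 155, 195 and 224 CPM in C, CC and CCC, 150.4 and 149.7 in H and HH, 167 and 197 in HC and HHC, and 169 and 130.2 in CCH and HCH. Lrp6 had 187, 224 and 183 CPM in C, CC and CCC, 177 and 202 in H and HH, 191 and 219 in HC and HHC, and 201 and 182 in CCH and HCH. Neither was called.

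Dkk2, an inhibitor expressed in vessels, had 53.7, 13.2 and 4.31 CPM in C, CC and CCC, 45.5 and 80.9 in H and HH, 12.8 and 9.97 in HC and HHC, and 89.9 and 48.2 in CCH and HCH. Every S075 library was above every S019 library, and HH against CC was called, at 2.62 (95% interval 1.60 to 3.82), while HH against C within a set was 0.59 (95% interval 0.11 to 1.06). Fzd6 had 146, 71.7 and 90.5 CPM in C, CC and CCC, 180.1 and 167 in H and HH, 109.7 and 148 in HC and HHC, and 169 and 138 in CCH and HCH. HH against CC was called, at 1.22 (95% interval 0.73 to 1.73), with 0.20 against C. CC and CCC were the lowest libraries for Fzd6. Fzd3 had 15.8, 5.85 and 6.46 CPM in C, CC and CCC, 3.50 and 18.9 in H and HH, 8.17 and 15.7 in HC and HHC, and 42.6 and 21.1 in CCH and HCH. Fzd3 was lowest in H and highest in CCH and was called lower in H against C, at -2.18 (95% interval -5.28 to -0.21), from 2 UMIs in H, and in HCH against CCH, at -1.02 (95% interval -1.71 to -0.36). Fzd4 had 131, 222 and 228 CPM in C, CC and CCC, 147 and 125 in H and HH, 87.5 and 121 in HC and HHC, and 134 and 149.8 in CCH and HCH. Fzd4 was lowest in HC and highest in CC and CCC and was called lower in HC against CC, at -1.35 (95% interval -1.76 to -0.94), and against CCC, at -1.38. The call against CC was lost with the macrophage level subtracted.

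Rspo3, an R-spondin of vessels, had 18.7, 2.93 and 17.2 CPM in C, CC and CCC, 24.5 and 24.3 in H and HH, 11.7 and 14.2 in HC and HHC, and 43.3 and 20.3 in CCH and HCH. Rspo3 was called higher in HH against CC, where CC had 2 UMIs, at 3.05, and lower in HCH against CCH, at -1.09. HH against C was 0.38 and not called. The call of HH against CC was lost in clusters and with the macrophage level subtracted. Sfrp5 had 1.44, 20.5 and 19.4 CPM in C, CC and CCC, 5.25 and 12.1 in H and HH, 7.0 and 27.1 in HC and HHC, and 9.84 and 40.6 in CCH and HCH with nearly the same order of libraries as in macrophage-gated nuclei. Its calls were lower in HC against CC, at -1.55, and higher in HCH against CCH, at 2.05. The first was lost with the macrophage level subtracted, with the stricter gate and without the upper gene limit, and the second was kept. Adipoq in this class was also higher in HCH than in CCH, at 214 and 90.5 CPM. The 10 adipocyte markers together had 726 and 668 CPM. The part of adipocyte RNA in the second call was not tested. Wnt5b had 17.7, 23.4 and 36.6 CPM in C, CC and CCC, 8.74 and 10.8 in H and HH, 36.2 and 21.4 in HC and HHC, and 17.7 and 12.8 in CCH and HCH. H and HH were the lowest, with no call.

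Of the effectors, Tcf7l1 had 782, 439 and 504 CPM in C, CC and CCC, 566 and 568 in H and HH, 581 and 558 in HC and HHC, and 743 and 493 in CCH and HCH, highest in C and CCH. Tcf7l2 had 757, 418 and 411 CPM in C, CC and CCC, 727 and 597 in H and HH, 477 and 423 in HC and HHC, and 640.2 and 482 in CCH and HCH, with the S075 libraries above the S019 libraries. Axin1 had 87.8, 67.3 and 75.4 CPM in C, CC and CCC, 80.4 and 75.5 in H and HH, 51.3 and 59.8 in HC and HHC, and 64.9 and 63.2 in CCH and HCH. No call was made for these 3. Lef1, a nuclear partner of beta-catenin, was called lower in H against C, at -1.54, with C the highest library at 25.4 CPM. Axin2, a feedback target of beta-catenin, was called lower in HH against CC, HC against CC and HHC against CCC, at -3.44, -1.84 and -2.60. CC and CCC had 29.3 and 34.5 CPM of Axin2 there, and the other 7 libraries had at most 8.17 CPM. In macrophage-gated nuclei CC and CCC also had the most Axin2, 22.8 and 13.9 CPM. With this level subtracted all 3 Axin2 calls were lost. Ror2 was called lower in HHC against CCC, at -1.21.

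In endothelial-gated nuclei 6 of 17 calls were kept under all 9 alternatives, Lef1 lower in H against C, Dkk2 and Fzd6 higher in HH against CC, and Sfrp5 higher and Fzd3 and Rspo3 lower in HCH against CCH. The Fzd3 call in H against C and the Ror1 and Ror2 calls in HHC against CCC were lost without the upper gene limit. Ignoring doublet calls ended those of Ror1 in HH against CC and HHC against CCC.

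**Figure D5:**
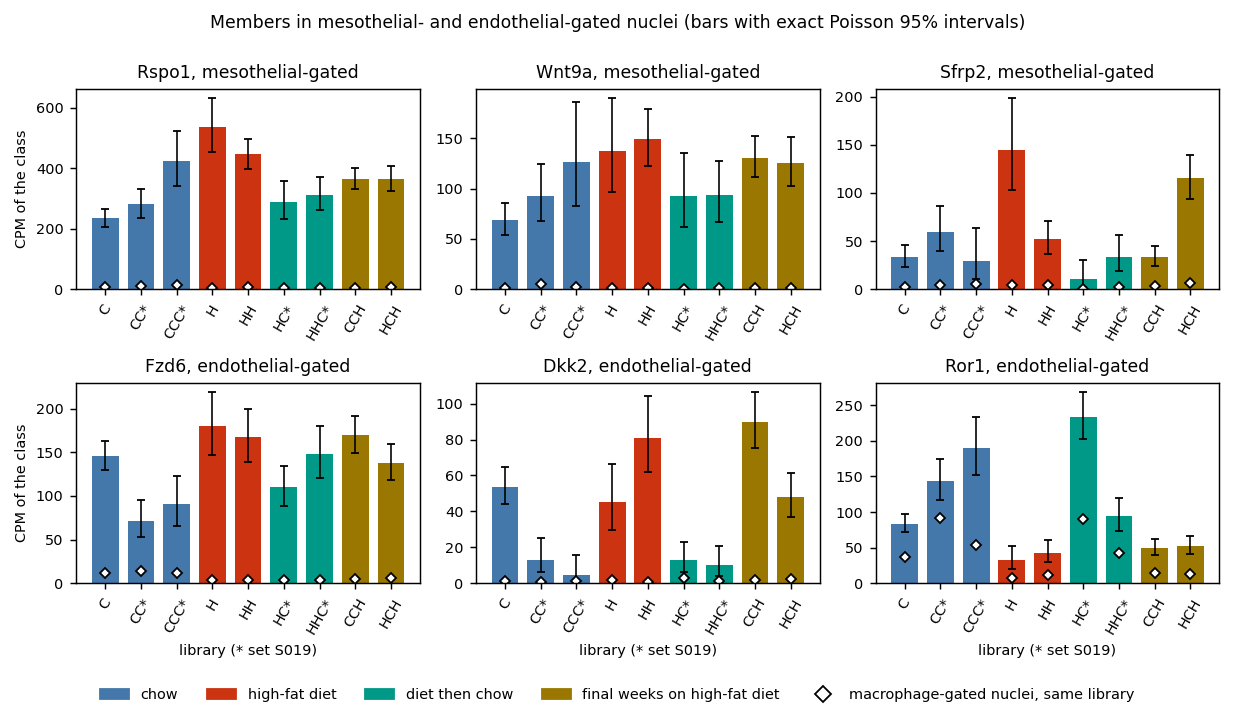
CPM of 3 members in mesothelial-gated nuclei (top) and 3 in endothelial-gated nuclei (bottom) of the 9 libraries, with exact Poisson 95% intervals and macrophage levels as diamonds (asterisks, sequencing set S019). Rspo1 and Sfrp2 are highest in H, Wnt9a is lowest in C, Dkk2 is lower in all 4 S019 libraries, and Ror1 is lowest in H and HH.

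Sequencing set coincided with the last diet, since the 4 libraries of S019 ended on standard chow while S075 held the 4 that ended on HFD and C on low-fat diet. Some members differed between the sets without overlap. In progenitor-gated nuclei 3 of 34 members did so (12.5% of all genes), with Axin2 and Tcf7l1 higher in S019 and Sfrp4 higher in S075. In adipocyte-gated nuclei 5 of 20 did so (12.6% of all genes), with Axin2, Lrp5, Ror1 and Tcf7l1 higher in S019 and Lrp6 higher in S075. In mesothelial-gated nuclei 4 of 21 did so (10.0% of all genes), Axin2, Lrp5, Tcf7l1 and Wnt2b, all higher in S019. In endothelial-gated nuclei 6 of 15 did so (12.3% of all genes), with Ror1, Ror2 and Wnt5b higher in S019 and Dkk2, Rspo3 and Tcf7l2 higher in S075. For these members set and last diet cannot be told apart, nor can the contrast of HH with CC be told from the set, while H against C, HC against CC, HHC against CCC and HCH against CCH stay within a set.

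The other genes of the pathway, 52 genes in lists for secretion, receptor turnover, the destruction complex, planar polarity, nuclear co-factors and feedback targets, gave calls in both directions. In progenitor-gated nuclei 5 of 44 tested were called higher and 4 lower in H against C, 7 and 8 of 44 in HH against CC, 2 and 3 of 42 in HC against CC, 1 and 1 of 42 in HHC against CCC, and 2 and 0 of 43 in HCH against CCH. Of all genes, 27.4%, 30.7%, 12.9%, 12.4% and 14.2% were called in these comparisons. Their median log2 ratio lay between -0.10 and 0.07 in these. Of the 11 genes of the destruction complex and transducers, which include Ctnnb1, Apc and Gsk3b, none was called in progenitors except 2 higher in HH against CC. The co-repressor Tle2 had 6.56, 2.29 and 4.46 CPM in C, CC and CCC, 18.6 and 14.9 in H and HH, 11.2 and 10.0 in HC and HHC, and 7.40 and 9.28 in CCH and HCH. Tle2 was called higher in H against C, at 1.51, in HH against CC, at 2.70, in HC against CC, at 2.29, and in HHC against CCC, at 1.17, and all 6 diet groups were above the 3 controls. The calls in H against C and HH against CC were kept in all 7 alternatives, that in HC against CC was lost with the macrophage level subtracted, and that in HHC against CCC with TMM factors and in clusters.

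The polarity gene Vangl2 had 9.04, 5.73 and 7.65 CPM in C, CC and CCC, 19 and 20.7 in H and HH, 10.6 and 10.9 in HC and HHC, and 10.0 and 11.3 in CCH and HCH in progenitors. Vangl2 was highest in H and HH and was called in H against C, at 1.07 (95% interval 0.53 to 1.64), and in HH against CC, at 1.85 (95% interval 0.93 to 2.95). The call of H against C was lost with TMM factors. Apcdd1, a Wnt inhibitor and feedback target, had 11.1, 25.8 and 17.8 CPM in C, CC and CCC, 4.43 and 5.67 in H and HH, 17.9 and 14.0 in HC and HHC, and 9.56 and 8.00 in CCH and HCH. Apcdd1 was lowest in H and HH and was called lower in H against C, at -1.32 (95% interval -2.09 to -0.59), and in HH against CC, at -2.19 (95% interval -2.87 to -1.52). The glypican Gpc4 was called lower in HH against CC, at -1.25, and in HC against CC, at -1.21, with -0.62 for HH to C and -0.77 for HC to CCC, neither called. After subtraction of the macrophage level both Gpc4 ratios to CC turned, to 2.06 and 1.60. Ccnd1, a cell cycle gene, had 2.71, 10.9 and 9.56 CPM in C, CC and CCC, 8.31 and 9.07 in H and HH, 6.68 and 6.77 in HC and HHC, and 3.70 and 7.71 in CCH and HCH. It was called higher in H against C, at 1.61, and in HCH against CCH, at 1.06, but the chow libraries CC and CCC were the highest of all. Both Ccnd1 calls and both Apcdd1 calls were lost with the macrophage level subtracted. Lgr5, an R-spondin receptor, had 21.9, 0.573 and 9.56 CPM in C, CC and CCC, 0 and 7.13 in H and HH, 39.4 and 0 in HC and HHC, and 0.308 and 0.143 in CCH and HCH, and the controls spanned most of this range.

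In adipocyte-gated nuclei 5 of 41 pathway genes were called higher and 4 lower in H against C, 1 and 7 of 37 in HH against CC, 1 and 3 of 38 in HC against CC, 1 and 4 of 40 in HHC against CCC, and 4 and 0 of 34 in HCH against CCH. The shares of all genes called were 29.3%, 34.5%, 11.7%, 13.9% and 16.6%. Nkd1, a feedback target of beta-catenin that restrains Dishevelled, had 4.38, 47.2 and 107 CPM in C, CC and CCC, 48.1 and 65.2 in H and HH, 97.6 and 91.6 in HC and HHC, and 26.4 and 65.8 in CCH and HCH. C was far below every other library, H against C was called at 3.45 (95% interval 2.81 to 4.09), HC against CC at 1.05 and HCH against CCH at 1.32. HC against CCC was -0.14 and not called, so the direction for HC depended on the control. The call of H against C was kept in all 7 alternatives, and without the upper gene limit the other two were lost. Tle1 had 300.0, 108 and 86.9 CPM in C, CC and CCC, 133 and 132 in H and HH, 143 and 191 in HC and HHC, and 199.6 and 134 in CCH and HCH. C was the highest, as for Tcf7l2, and Tle1 was called lower in H against C, at -1.18 (95% interval -1.47 to -0.90), and higher in HHC against CCC, at 1.14 (95% interval 0.90 to 1.37). Both Tle1 calls were lost without the upper gene limit. The beta-catenin co-factors Pygo1 and Pygo2 had calls in opposite directions in H against C and in HH against CC. Pygo1 was called lower, at -2.31 and -2.44, and Pygo2 higher, at 1.21 and 1.06. Both Pygo2 calls were lost with TMM factors and without the upper gene limit, while those of Pygo1 were kept. Celsr2 was called lower in HC against CC, at -1.0, and higher in HCH against CCH, at 1.14. Neither Celsr2 call was kept with TMM factors or without the upper gene limit. Gpc6 was called lower in HH against CC, at -2.0, and higher in HCH against CCH, at 1.01. Every S019 library was above every S075 library for Gpc6, and HH against C was -0.95 and not called. The Gpc6 call of HCH against CCH was lost with TMM factors, and that of HH against CC with the macrophage level subtracted, and neither was kept without the upper gene limit.

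In mesothelial-gated nuclei 1 of 32 pathway genes was called higher and 3 lower in H against C, 0 and 4 of 32 in HH against CC, 0 and 2 of 28 in HC against CC, 0 and 1 of 24 in HHC against CCC, and 0 of 34 in HCH against CCH. The shares over all genes were 12.8%, 21.3%, 9.78%, 7.99% and 10.5%. Gpc4 was the only pathway gene called in at least 2 of these, lower in HH against CC, at -1.33, and in HHC against CCC, at -1.91. Both were lost in clusters, and the first turned to 1.05 with the macrophage level subtracted. In endothelial-gated nuclei 1 of 34 was called higher and 3 lower in H against C, 0 and 6 of 32 in HH against CC, 1 and 1 of 31 in HC against CC, 0 and 8 of 32 in HHC against CCC, and 0 and 1 of 36 in HCH against CCH. Those over all genes were 19.2%, 23.6%, 10.6%, 11.6% and 13.7%. Lgr4, an R-spondin receptor, had 105, 80.5 and 71.1 CPM in C, CC and CCC, 38.5 and 37.8 in H and HH, 49.0 and 34.2 in HC and HHC, and 82.6 and 44.4 in CCH and HCH. HHC, HH and H were the lowest, and it was called lower in H against C, at -1.44 (95% interval -2.15 to -0.81), in HH against CC, at -1.09 (95% interval -1.80 to -0.41), and in HHC against CCC, at -1.06 (95% interval -1.88 to -0.25). Gpc6 was called lower in H against C, at -1.70, and in HH against CC, at -1.02, but higher in HC against CC, at 1.32 (95% interval 0.94 to 1.72), with 0.12 for HC to CCC. The calls lower of Gpc6 in H against C and HH against CC were lost with the macrophage level subtracted, and HH against CC then turned to 0.78. Gpc6, Apcdd1 and Gpc4 were called lower in HHC against CCC, at -1.36, -1.29 and -1.60, and so was Daam2, a polarity gene, at -1.75. Each of these 4 was lost in clusters, where Daam2 turned to 1.17, and in CCC 37.1% of endothelial-gated nuclei fell in an endothelial cluster. The Lgr4 calls were all lost with the macrophage level subtracted, and that of HHC against CCC in clusters too.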

How the data were processed

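Single-nucleus RNA sequencing libraries of mouse epididymal adipose tissue (10x Genomics 3′ chemistry) were aligned and counted by the authors with Cell Ranger 6.1.2 on mm10, per the labels, and the deposited values are raw counts, UMIs per gene and nucleus. All 9 libraries were used, 1 a group, and 0 columns of other series were present. Nuclei with 500 to 3000 genes and at most 40000 UMIs were kept. Doublets were removed with Scrublet scores (expected rate in proportion to the number of barcodes) at the automatic threshold, or, where that marked under 0.5% (CC, CCC, HC and HHC), at the highest scores up to the expected rate, leaving 73073 of 91687 barcodes. Classes were gated on marker UMIs in excess of the level the library background predicts. This gate replaced a plain marker count after class sizes, but not values of members, had been seen. Shallower libraries, from 22599619 UMIs, give wider intervals.

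UMIs were summed per class and library and expressed as CPM. With 1 library a group no p-value can be given. The members and gene lists were chosen with earlier results of these data known. Values in every library are given for members with at least 100 UMIs in a class that were among the 3 highest of their role by median CPM or called in at least 2 of the 5 comparisons. Pathway genes were named where called in at least 2 comparisons of a class, at most 6 a class. Alternatives were TMM factors, other filters, folds, gates, clusters, doublet and gene limits, subtraction of macrophage CPM and other control libraries. Those within progenitor types, of HC against CCC and of the named pathway genes were added after the data were seen. The count and interval steps were tested on simulated data with Poisson counting error only. That test could not judge the intervals where UMIs gather in few nuclei. In dendritic-gated nuclei of HHC, for example, all 41 UMIs of Dkk2 lay in 1 of 36 nuclei. Gene positions and lengths are of GENCODE vM21, matched by gene ID for all 51 members. Python 3.11.15, scipy 1.17.1, scanpy 1.11.5, leidenalg 0.10.2, R 4.3.3 and edgeR 4.0.16 (TMM factors only) were used.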

Additional observations from a re-analysis of the deposited data

Results flagged for a closer look

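Wnt9a in adipocyte-gated nuclei went opposite ways in the weight loss comparisons. The log2 ratio was 1.17 in HC against CC and -1.45 in HHC against CCC, with intervals on opposite sides of 0 and 1 library in each group. The difference between these comparisons was not tested. HC against CCC gave -0.10 (95% interval -0.84 to 0.62). CC and CCC are both of the sequencing set of HC, but CC was of its age, 26 weeks, while CCC was 39 weeks old. The levels rested on 32 UMIs in HC, 17 in CC, 6 in HHC and 36 in CCC.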

How the results depend on the processing

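No paired analysis was possible because each group had 1 library. Of 234 counts of called members 176 were within 1.5 times the reported count, and of 3141 ratios of named members 2945 kept their direction and side of the threshold, 69 lost the call, 121 gained one and 6 changed sign. Of 98 calls TMM factors kept 88, no filter 98, at least 50 UMIs 58, a 1.5-fold limit 98, the stricter gate 90, clusters 87, no upper gene limit 77, ignored doublets 92 and subtracted macrophage levels 54. No filter and the 1.5-fold limit cannot lose a call. Control C kept 11 of 28 calls of the HH and control CCC 6 of 15 of the HC comparison. Within Dpp4-type nuclei 19 and within committed nuclei 21 of 41 progenitor calls were kept. The causes were not tested, and counts of few UMIs in H adipocytes and in mesothelial nuclei limit every comparison there.

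The changed signs were those of Sfrp5 in progenitors (HH, control C, 2.10), Fzd4 in progenitors (HC to CC, macrophage level subtracted, 0.0104), Wnt9a in adipocytes (HC, control CCC, -0.10), Ror1 in adipocytes (HHC to CCC, no upper gene limit, 0.42) and Fzd4 in mesothelial nuclei (HH to CC, 0.50 with the macrophage level subtracted and 0.0420 with control C). Among the named pathway genes, Gpc4 with the macrophage level subtracted turned to 2.06 and 1.60 in progenitors (HH and HC to CC), 1.05 in mesothelial and 1.53 in endothelial nuclei (HH to CC). Gpc6 in endothelial nuclei (HH to CC) turned to 0.78 with it subtracted and 0.29 with doublets ignored, and Daam2 (HHC to CCC) to 1.17 in clusters. Of 14 progenitor, 14 adipocyte, 2 mesothelial and 14 endothelial calls of these genes, 4, 3, 0 and 1 were kept under all 7 alternatives, which were applied to them after the data were seen.

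With at least 50 UMIs, 25 progenitor, 14 adipocyte, 9 mesothelial and 10 endothelial calls were left in the 5 comparisons together. In progenitors this gave 1 for HC to CC and 3 for HHC to CCC. In adipocytes it gave 2 for H to C, 4 for HH to CC and 1 for HC to CC, in mesothelial nuclei 1 for HC to CC and 0 for HHC to CCC, and in endothelial nuclei 3 for HH to CC, 1 for HC to CC and 1 for HHC to CCC. A 1.5-fold limit gave 63 calls in progenitors, 13 of them in HCH against CCH, 7 in adipocytes of H against C, and 26 in mesothelial nuclei, of which 11 for HH to CC, 2 for HHC to CCC and 3 for HCH to CCH. In endothelial nuclei it gave 5 each for HC to CC, HHC to CCC and HCH to CCH.

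Shares over all genes were not computed under the alternatives, apart from the other control libraries, so the counts of members here stand without a background. Without the upper gene limit adipocytes had 48 calls, 19 for H to C, 15 for HH to CC and 7 for HCH to CCH, mesothelial nuclei 3 in H against C and 5 in HHC against CCC, and endothelial nuclei 1 for HHC to CCC and 9 for HCH to CCH. Clusters in place of gates gave 10 calls in progenitors of HC against CC, 11 in adipocytes of HHC against CCC, 3, 7, 5, 2 and 2 in mesothelial nuclei of the 5 comparisons in the order of the report, and 6 and 7 in endothelial nuclei of HC against CC and HCH against CCH. No filter gave 5 in mesothelial HC against CC and 5 each in endothelial H against C and HCH against CCH. The stricter gate gave 0 in mesothelial HHC against CCC and 5 in endothelial HCH against CCH, subtraction of macrophage levels 0 and, in endothelial HH against CC, 3, and TMM factors 3 in mesothelial H against C. With control C, HH had 16 calls in adipocytes, 2 in mesothelial and 1 in endothelial nuclei. With control CCC, HC had 6 in adipocytes and 0 in mesothelial nuclei. Within Dpp4-type nuclei there were 5 calls for HH to CC, 1 for HC to CC, 2 for HHC to CCC and 4 for HCH to CCH.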
